A study of Drosophila melanogaster with 2 samples.

Results

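Chromatin immunoprecipitation followed by sequencing (ChIP-seq) of GFP-tagged Bsh was examined at 9 genes of the Beat and Side families of axon guidance proteins. The genes were beat-Ia, beat-Ib, beat-Ic, beat-IIa, beat-IIb, beat-IV, side, side-II and side-III, out of 13945 protein-coding genes on the major chromosomes, and another 13 Beat and Side genes served as the rest of the families. Bsh (brain-specific homeobox) is a homeodomain transcription factor. The embryos were of a transgenic fly line that stably carries Bsh with GFP fused to its C-terminal end, and whole embryos of 10 to 12 h were the material. The labels give the antibody in 2 ways, their description as one against GFP and their antibody field as bsh. Whether untagged Bsh could also have been precipitated therefore cannot be told from them. The line is the only one in the data, and the promoter that drives the fusion is not given in the sources used here. There were 2 biological replicates of this 1 group, so no conditions could be compared and no test was run. With whole embryos, binding in few cells and weak binding in many cells cannot be told apart.

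Beat and Side proteins belong to the immunoglobulin superfamily and steer growing axons in the fly. Beat-Ia (Beaten path) is made by motor neurons and lets motor axons leave their bundle at the points where they turn to their muscles. Side (Sidestep) is a membrane protein on the cells along the route and in the target field, and it is the partner that Beat-Ia recognises. Other members of the families form further pairs, among them Beat-IIa and Beat-IIb with Side-IV and Beat-VI with Side-II, and some of these pairs act in synaptic matching in the brain. Homeodomain proteins as a class recognise short sites built around the letters TAAT.

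A gene was counted where the summit of a peak, the position of highest signal that the authors' peak caller gave, lay in its annotated span with 2 kb either side. The main list was the set of 7927 peaks that the authors derived with the irreproducible discovery rate (IDR), which scores how well replicates rank peaks alike. A rank counts peaks from the strongest down by signal value, a score of the caller without a physical unit. Of the 9 genes, 4 (44.4%) had an IDR summit, against 5834 of all 13945 protein-coding genes (41.8%). All 9 are long genes, in the longest 2 of 20 equal bins by window length, where 954 of 1395 genes (68.4%) had one. The share over all protein-coding genes moved with the window, to 15.6% without a margin and 70.5% with 10 kb either side. The count here was 4 of 9 at each. All 11 summits lie inside the spans, and the other 5 genes had their nearest IDR summit at least 23759 bp from the span. With 5 or 10 kb either side the windows held 12 summits, as side then had 5. The 4 genes were beat-Ib with 5 summits, side with 4, and beat-IIa and side-III with 1 each, 11 summits in total. By family, they were 2 of the 6 Beat genes and 2 of the 3 Side genes. The strongest of the 11 peaks lay at beat-Ib and had a signal value of 2363.9, where the median over all IDR peaks was 311.6.

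The sequences around 7 of the 11 summits are shown because they cover each bound gene and hold all of the longer homeodomain-type matches described further on. Each holds the summit and 50 bases either side of it and is read 5′ to 3′ on the plus strand of genome release 6 (dm6, RefSeq). Capitals mark TAAT and its reverse complement ATTA. The beat-Ib stretches are chr2L:15911220-15911320, chr2L:15912127-15912227 and chr2L:15908635-15908735. Those of side are chr3R:27426852-27426952 and chr3R:27407176-27407276, that of beat-IIa is chr3R:17348998-17349098, and that of side-III is chr3R:5891909-5892009. Each name is followed by the peak's rank in the IDR list.
beat-Ib rank 147: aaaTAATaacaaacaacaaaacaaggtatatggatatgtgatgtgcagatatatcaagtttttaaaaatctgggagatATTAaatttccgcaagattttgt
beat-Ib rank 398: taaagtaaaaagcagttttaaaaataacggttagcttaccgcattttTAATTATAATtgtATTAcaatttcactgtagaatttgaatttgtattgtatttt
beat-Ib rank 1755: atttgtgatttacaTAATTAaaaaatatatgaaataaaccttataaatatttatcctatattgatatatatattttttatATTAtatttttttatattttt
side rank 3349: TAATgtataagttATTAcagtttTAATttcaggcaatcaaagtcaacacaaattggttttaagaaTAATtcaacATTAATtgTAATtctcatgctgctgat
side rank 3522: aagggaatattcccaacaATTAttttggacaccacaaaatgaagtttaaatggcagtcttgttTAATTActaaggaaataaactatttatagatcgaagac
beat-IIa rank 6410: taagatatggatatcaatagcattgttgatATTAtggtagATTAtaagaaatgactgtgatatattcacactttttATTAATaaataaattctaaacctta
side-III rank 7714: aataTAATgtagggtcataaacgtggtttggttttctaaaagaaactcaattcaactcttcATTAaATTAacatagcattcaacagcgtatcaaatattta

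Among Beat genes, beat-Ib carried a compact group of strong peaks. This close relative of beat-Ia (FBgn0028645) is on arm 2L, minus strand, between 15905134 and 15962435, and all 5 IDR summits fell in its second intron, which is 31085 bp long. The summits spanned 4621 bp at the 3′ end of that intron, between 407 and 5028 bp from the third exon. The annotated beat-Ib start was far away, 49129 to 53750 bp. Over all IDR summits, 273 (3.44%) lay in a stretch of 5 kb that held at least 5 of them, a width chosen after these summits were seen.

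The strongest beat-Ib peak covered 15911025 to 15911647 with its summit at 15911270. It ranked 147 in the IDR list, the strongest 1.85% of the list, and ranked 157 in replicate 1 and 130 in replicate 2. The next peak, at 15911928 to 15912406, had its summit at 15912177, a signal value of 1484.1 and an IDR rank of 398, with ranks 376 and 402 in replicates 1 and 2. Both replicates therefore placed this pair far up their lists, with little difference in rank. Both summits were classed as promoter, but of non-coding genes nested in the intron: the first lay 421 bp upstream of the start of lncRNA:CR44867 and the second 381 bp upstream of that of lncRNA:CR44868. Among the 224 IDR summits in promoters of non-coding genes alone, they ranked 8 and 22 by signal value. The nearest protein-coding start was in each case that of the nested gene CG13244, 5618 and 4711 bp away.

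The next interval, 15912855 to 15913564, carried 2 summits. The stronger, at 15913102, lay in an exon of lncRNA:CR44868, with a signal value of 746.4 and IDR rank 1306. It ranked 1265 in replicate 1 and 1325 in replicate 2. The weaker summit of the same interval, at 15913306, was intronic, with a signal value of 161.4 and IDR rank 7504. Here the replicates stood apart, with rank 19226 in replicate 1 and 4109 in replicate 2. CG13244 had the nearest protein-coding start for both, at 3786 and 3582 bp. The fifth summit, at 15908685 in the peak 15908450 to 15909092, was the one next to the third exon. Its signal value was 608.0 and its IDR rank 1755, with ranks 1549 in replicate 1 and 2177 in replicate 2. The nearest protein-coding start was that of CG31821, at 6275 bp. Weaker peaks of the pooled replicates lay in the same area, at 15910049 (rank 17192 of 30000) in the second intron and at 15907806 (rank 23084) in the third. Each of them had a peak in replicate 2 and none in replicate 1. Replicate 1 alone had a weak peak at 15907178, rank 28742.

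**Figure D1:**
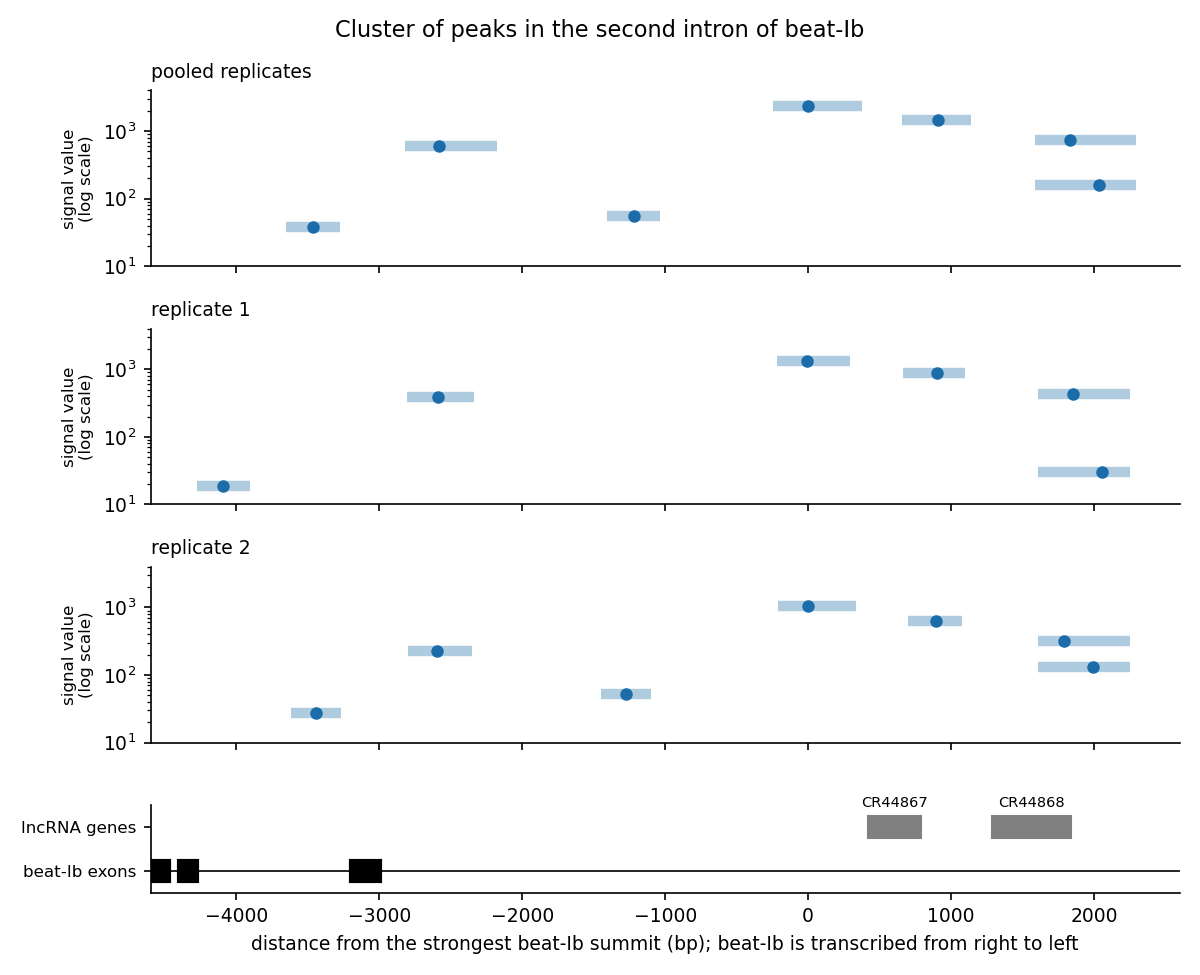
Peaks of beat-Ib around the 3′ end of its second intron, by distance from the strongest summit in bp (x) and signal value on a log scale (y). Panels show the pooled replicates and each replicate, where bars span the peaks and dots are summits. The lowest panel shows exons and nested lncRNA genes, and summits to the left of the third exon lie in the third intron. The 4 strongest summits recur in all 3 lists, while the weaker summit at about 2 kb to the right is much lower in replicate 1 than in replicate 2.

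At beat-IIa, a gene whose protein pairs with Side-IV, the signal was spread and weak. The gene (FBgn0038498) is on arm 3R, minus strand, at 17320004 to 17366119, and its 1 IDR peak, at 17348860 to 17349235, had its summit at 17349048. The signal value was 190.1 and the IDR rank 6410, with rank 5759 in replicate 1 and 9325 in replicate 2. The summit lay in the first intron, which is 19631 bp long, 2715 bp upstream of an internal beat-IIa start, and no protein-coding start of another gene was closer. In the pooled replicates, 5 further summits lay in the first or second intron. They were at 17350433 (signal value 109.1, rank 10354), 17344661 (93.2, rank 11684), 17343800 (49.0, rank 19012), 17354873 (48.9, rank 19034) and 17352868 (45.1, rank 20220). All 5 had a peak in both replicates, and a beat-IIa start was nearest to each, at 1672 to 8540 bp.

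One beat-IIa peak was present in both replicates but had no peak in the pooled list. Its summit lay in the first intron at 17357067 in replicate 1 (rank 6723, signal value 106.1) and at 17357091 in replicate 2 (rank 7730, signal value 72.0), about 9 kb from the nearest beat-IIa start. By rank it stood above the IDR peak of the gene in replicate 2 and below it in replicate 1. Of the 6837 peaks that are among the 7927 strongest of replicate 1 and overlap an equally strong peak of replicate 2, 44 (0.644%) had no overlapping pooled peak, and this was 1 of them. Peaks of 1 replicate alone were weaker: 17354293 in replicate 1 (rank 25109), and 17346289 (rank 27489) and 17344051 (rank 27604) in replicate 2. That at 17346289 lay 44 bp from the internal beat-IIa start.

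The neighbouring gene beat-IIb, whose protein also pairs with Side-IV, had no IDR summit. It (FBgn0038494) is on arm 3R, minus strand, at 17232253 to 17265049, and 2 weak pooled summits fell in its first intron, at 17251575 (signal value 83.6, rank 12693) and 17249308 (34.5, rank 24919). Replicate 1 had 4 summits there, with ranks of 10739 to 28216, and replicate 2 had none. The nearest protein-coding start was that of the nested gene CG44259 for the stronger summit, at 2554 bp, and that of beat-IIb itself for the weaker, at 1431 bp. The nearest IDR summit was the one in beat-IIa, 83999 bp upstream.

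Of the 3 Side genes described, side had the most IDR summits, and they were spaced out over its first 2 introns. The gene (FBgn0016061) is on arm 3R, minus strand, at 27375088 to 27437482. Its 4 IDR summits were intronic, 10580 to 30256 bp downstream of its start, and for each of them the side start was the nearest protein-coding one. The strongest, at 27426902 (peak 27426782 to 27427042), lay in the first intron with a signal value of 361.0 and IDR rank 3349. It ranked 3494 in replicate 1 and 3375 in replicate 2. The next, at 27407226 (peak 27407105 to 27407347), lay in the second intron with a signal value of 348.2, IDR rank 3522 and ranks 3208 and 3948 in replicates 1 and 2. Those at 27421974 in the first intron (peak 27421891 to 27422106, 234.3, rank 5292) and at 27413391 in the second (peak 27413279 to 27413451, 203.6, rank 6013) ranked 5139 and 5836 in replicate 1, and 5962 and 7003 in replicate 2.

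Both replicates thus held all 4 side peaks within their strongest 7927. Neighbouring side summits were 4928 to 8583 bp apart, and the group spanned 19676 bp. An annotated lncRNA, lncRNA:CR45991, lies in the second intron, and its start was closer than that of side to 3 of the 4 summits, at 1720 to 10303 bp. The pooled list added a summit at the side start itself, 6 bp from it at 27437476, with a signal value of 56.7 and rank 17014. It ranked 22031 in replicate 1 and 15414 in replicate 2, below the IDR set in each list. The other added summits were at 27416263 (signal value 95.1, rank 11494) in the second intron and 27426164 (30.6, rank 27348) in the first. Replicate 1 alone had weak summits at 27412197, in the exon of lncRNA:CR45991, and at 27415752, with ranks 22452 and 27871. Just outside the window, 3283 bp upstream of the side start, lay an IDR summit at 27440765 with a signal value of 504.7 and rank 2228. Its nearest protein-coding start was that of the neighbour CG44290.

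At side-III, the longest of the 9 genes with 96691 bp, the signal was close to the lowest of the IDR set. The gene (FBgn0083949) is on arm 3R, minus strand, at 5862865 to 5959555, and its 1 IDR peak, at 5891771 to 5892146 with its summit at 5891959, lay in the sixth intron. The signal value was 156.3, where the lowest of the IDR set was 151.5, and the IDR rank was 7714. The peak ranked 8498 in replicate 1 and 7531 in replicate 2. From the strongest 7927 peaks of replicate 1 alone, side-III would have no summit. The side-III start was 67596 bp away, and the nearest protein-coding start was that of CG2017, at 29554 bp. The nearest start of any gene was that of lncRNA:CR45761, at 1117 bp. Both other pooled summits in the window, 5861674 (signal value 88.9, rank 12100) and 5861873 (35.4, rank 24421), belonged to the promoter of CG2017 beyond the 3′ end of side-III. They were 228 and 29 bp from the CG2017 start. Replicate 1 alone had a summit at 5892530 in the fifth intron (rank 11038), and replicate 2 alone had one at 5862438 in the CG2017 promoter (rank 9833).

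**Figure D2:**
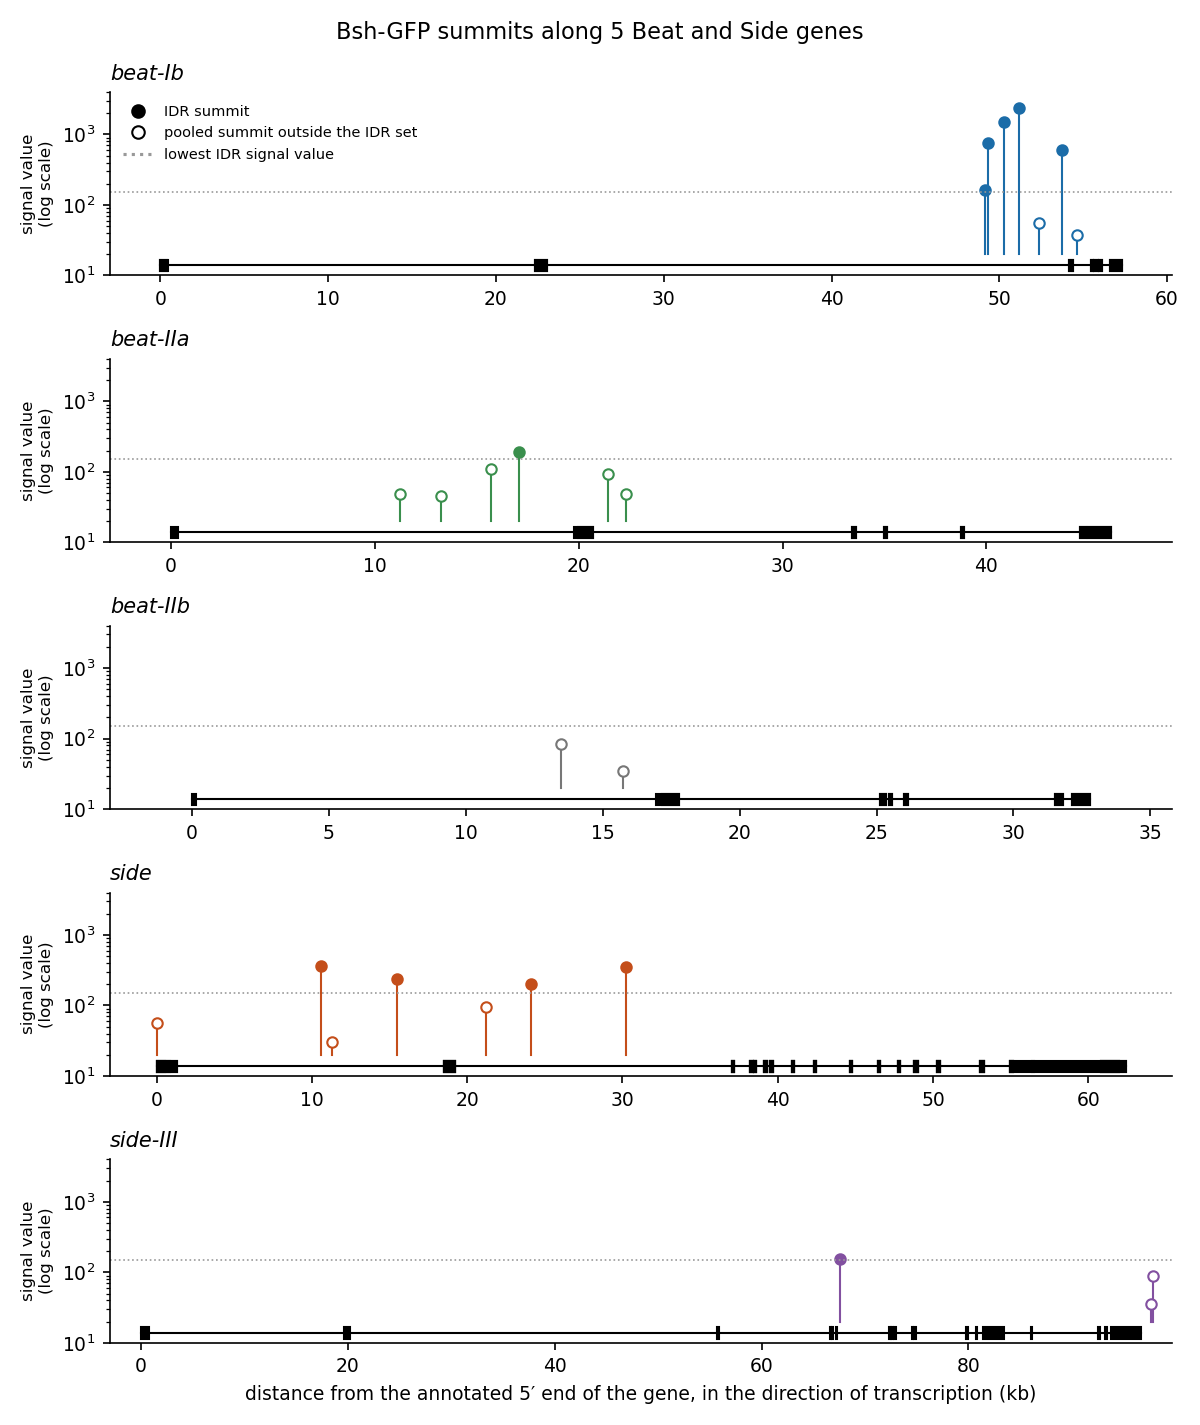
Pooled summits along beat-Ib, beat-IIa, beat-IIb, side and side-III, by distance in kb from the annotated 5′ end in the direction of transcription (x) and signal value on a log scale (y); black boxes are exons of all annotated transcripts, filled circles IDR summits, open circles other pooled summits, and the dotted line is the lowest IDR signal value of 151.5. The beat-Ib summits crowd near the 3′ end of the gene, those of side lie in its first 2 introns, and none of the filled circles is at the 5′ end of a gene.

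None of the 11 IDR summits lay within 500 bp of a start of the gene that holds it, so 0 of the 4 genes had an IDR summit at an own promoter. The share was 3280 of 5834 (56.2%) over all protein-coding genes with an IDR summit, and 478 of 954 (50.1%) over those in the same length bins. The distance from an IDR summit to the nearest own start had a median of 49129 bp at these genes, with a range of 2715 to 67596 bp. Over the 3891 pairs of a gene and a summit in the same length bins, the median was 4333 bp and 15.4% were within 500 bp. The median of 49129 bp is itself a beat-Ib summit, since that gene holds 5 of the 11. All 4 genes with summits are in the longest bin, while the comparison values also include the next longest. Windows of that bin span 18601 to 32610 bp, where a distance of 49129 bp cannot occur. Neither the distance nor the promoter share was computed over the longest bin alone, and 0 of 4 rests on few genes.

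By class, 8 of the 11 summits (72.7%) were intronic, against 42.3% of all IDR summits. Another 2 (18.2%) were in promoters, both of non-coding genes, against 36.1%, and 1 (9.09%) was in a non-coding exon, against 1.15%. The replicates differed on that exonic peak, with an intronic summit at 15913124 in replicate 1 and an exonic one at 15913063 in replicate 2. No summit was intergenic, in a UTR or in a coding exon, but windows centred on genes hold little intergenic sequence. All 11 summits lie inside the spans of long genes with long introns, so the intronic and promoter shares depend on that choice of genes. Class shares among summits in genes of like length were not computed. A start of a Beat or Side gene was the nearest protein-coding start for 5 of the 11 summits, the 4 of side and that of beat-IIa. In terms of length, the 9 windows cover 491912 bp and held 2.24 IDR summits per 100 kb, against 5.92 per 100 kb over the genome. In the pooled list the values were 5.08 and 22.41 per 100 kb. The genome values include short genes and the sequence between genes, and no density was computed over genes of like length. At the gene level, beat-Ib had 8.16 IDR summits per 100 kb, side 6.02, beat-IIa 2.0 and side-III 0.99. In the longest length bin, 31.1% of 698 genes had as many summits as beat-Ib or more, and 38.8% had as many as side or more.

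All 11 summits had TAAT within 50 bp on either strand, against 80.2% of all IDR peaks and 81.7% of those outside promoters. The same stretches were poor in G and C, with a median of 25.7% (range 8.91 to 29.7%), against 30.7% over all IDR peaks. Among the 3944 IDR peaks no richer in G and C than these, 93.6% held TAAT, so the count of 11 stands close to that share. The number of TAAT matches ranged from 1 to 7 with a median of 3, which was also the median of those 3944 peaks. In the printed sequences, side rank 3349 has 7 matches, a number that 2.9% of all IDR peaks reach or exceed. It is the highest of the 11, and this share was not computed among the peaks no richer in G and C. The palindrome TAATTA was found at 3 of 11 summits (27.3%), beat-Ib ranks 398 and 1755 and side rank 3522, against 11.0% of all IDR peaks. The related TAATTG was found at 3 (27.3%), beat-Ib rank 398 and side ranks 3349 and 3522, against 10.9%. Both contain TAAT. Together, 4 of 11 summits (36.4%) had either of them, against 20.5% of all IDR peaks and 27.2% of those no richer in G and C. The strongest peak of the 9 genes, beat-Ib rank 147, had neither.

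Letters known from other fly factors were rare at these summits, also searched on both strands. GAGAG, of GAGA factor, was found at 1 of 11, against 8.55% of all IDR peaks. CGATA, the letters of BEAF-32 sites, was at 0 of 11 against 12.4%, and TATCGATA of DREF, which contains it, at 0 against 0.946%. CAGGTAG of Zelda was at 0 against 0.328%, and the E-box letters CACGTG and CAGCTG at 0 against 0.568% and 2.51%. GGTCACAC, a core promoter element, was at 0 against 0.593%. With 11 peaks and shares this low over all IDR peaks, 0 matches carry little information.

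The replicates ranked most of these peaks alike. The IDR list was derived from how alike replicates rank peaks, so part of this likeness is built in. Of the 11 IDR peaks, 8 were within the strongest 7927 of both replicates, where the share over all IDR peaks was 84.2%. The exceptions were the weakest beat-Ib summit, the beat-IIa peak and the side-III peak. The ratio of the larger to the smaller replicate rank had a median of 1.2 at these peaks and 1.19 over all 7869 IDR peaks with a peak in both replicates. The largest ratio was 4.68, at the weakest beat-Ib summit, and the next was 1.62. Replicate summits lay close to those of the pooled list, at a median of 11 bp in replicate 1 and 27 bp in replicate 2, and 74 bp at most.

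**Figure D3:**
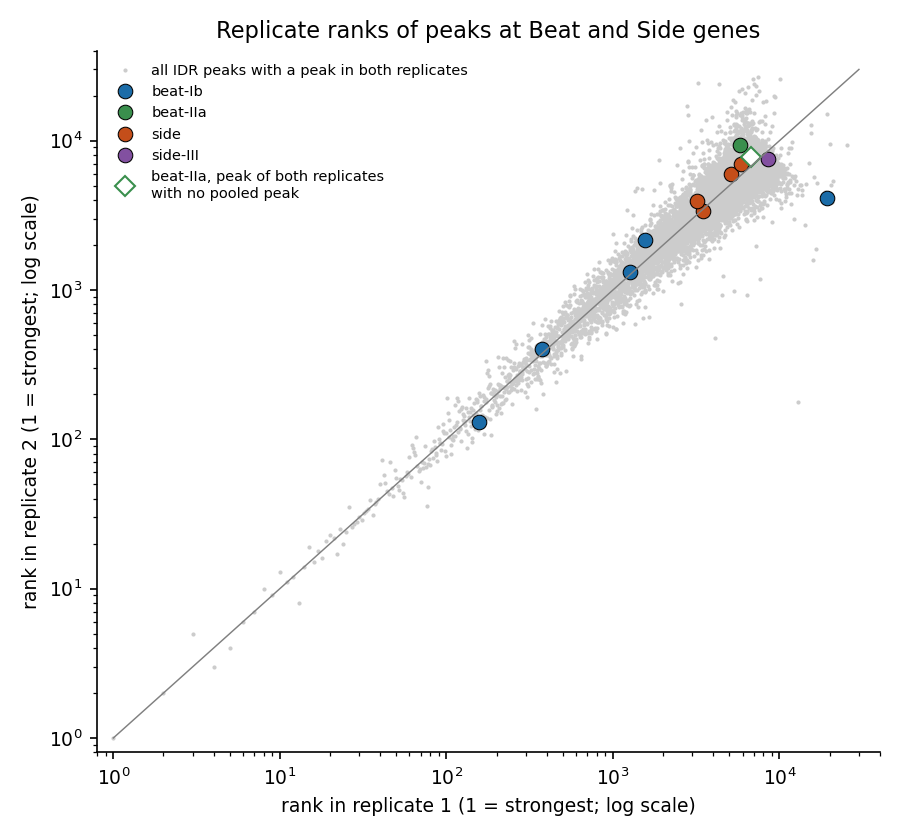
Rank of each peak in replicate 1 (x) and replicate 2 (y), both on log scales with 1 the strongest, for the IDR peaks of beat-Ib, beat-IIa, side and side-III (coloured) and all IDR peaks with a peak in both replicates (grey); the open diamond is the beat-IIa peak that the pooled list lacks. The coloured points follow the diagonal except the weakest beat-Ib summit, at rank 19226 in replicate 1 and 4109 in replicate 2.

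The remaining genes were empty or nearly so. No summit of any of the 4 lists lay in the windows of beat-Ia, beat-IV and side-II, 3 of 9 genes (33.3%). Over all protein-coding genes 4230 (30.3%) were empty in this sense, and in the same length bins 242 of 1395 (17.3%). beat-Ic had 1 summit, in replicate 2 alone at 16040600 (signal value 40.8, rank 13022), in its 3′ UTR and 1447 bp from the start of the neighbouring gene BicC. In the pooled list, 5 of the 9 genes (55.6%) had a summit, against 62.5% of all protein-coding genes. The number was also 5 in each replicate, against 65.5% in replicate 1 and 65.6% in replicate 2. The fifth gene was beat-IIb in the pooled list and in replicate 1, and beat-Ic in replicate 2.

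**Figure D4:**
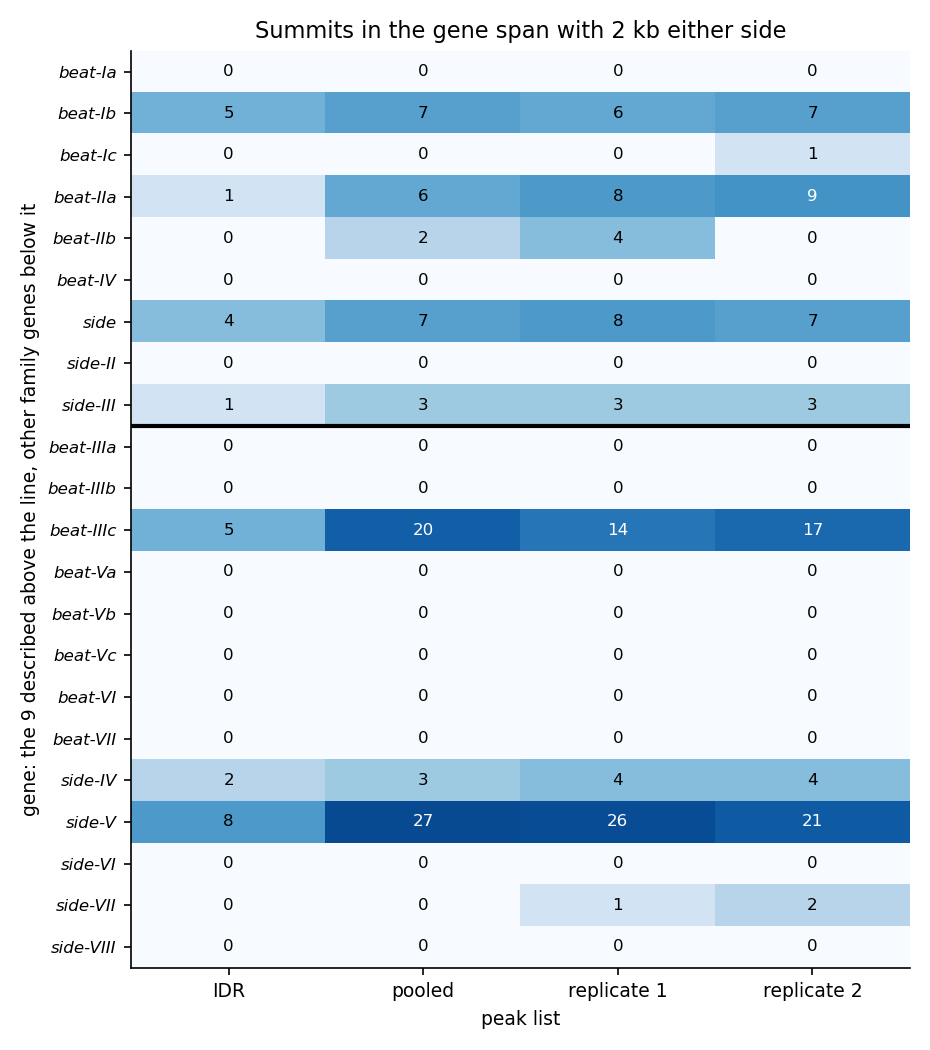
Number of summits per gene window in each of the 4 peak lists (columns) for the 9 genes described (upper block) and the other 13 Beat and Side genes (lower block); darker cells hold more summits. In the upper block, beat-Ib, beat-IIa, side and side-III have summits in every list, while beat-Ia, beat-IV and side-II have 0 in each.

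The 5 genes without an IDR summit lay in stretches of 200.9 to 344.6 kb between flanking IDR summits. A gene chosen for having none must lie in a stretch longer than its own window, so these lengths are a description and were not set against other genes of like length. beat-Ia (FBgn0013433), the founding gene of the family, lies on the plus strand of 2L at 16049965 to 16081684, and beat-Ic (FBgn0028644), a relative that also acts in the bundling of motor axons, at 16000291 to 16041703 on the same strand. Both fell in 1 stretch of 344.6 kb that began at the weakest beat-Ib summit. Stretches at least as long as this held 13.8% of the bases of the genome. In the pooled list, the stretch around beat-Ia and beat-Ic was 198.6 kb long (16.9% of the bases in stretches at least as long). Counting every list, beat-Ia still had 69.8 kb free of summits (30.8%). The closely related beat-Ib thus lay at the edge of this stretch, with its 3′ part bound and its first 49129 bp without an IDR summit.

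side-II (FBgn0259213), which encodes the partner of Beat-VI, is on arm 2L, minus strand, between 14907489 and 14972300, in a stretch of 289.7 kb without an IDR summit. Counting every list, 274.1 kb around it held no summit, and stretches at least as long held 13.2% of the bases. The nearest IDR summit was 23759 bp upstream of the side-II start, a strong one with a signal value of 1686.8 and rank 307, and mol, known for dual oxidase maturation, had the nearest protein-coding start. beat-IV (FBgn0039089), on the plus strand of 3R at 23557412 to 23580077, had 200.9 kb without an IDR summit and 104.3 kb without a summit of any list. Stretches at least as long held 19.2% and 23.9% of the bases. The nearest IDR summit was 66307 bp beyond the 3′ end of beat-IV, with a signal value of 778.2, near the start of CG31145. The stretch around beat-IIb was 231.3 kb in the IDR list (17.3% of the bases) and ended at the beat-IIa summit.

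**Figure D5:**
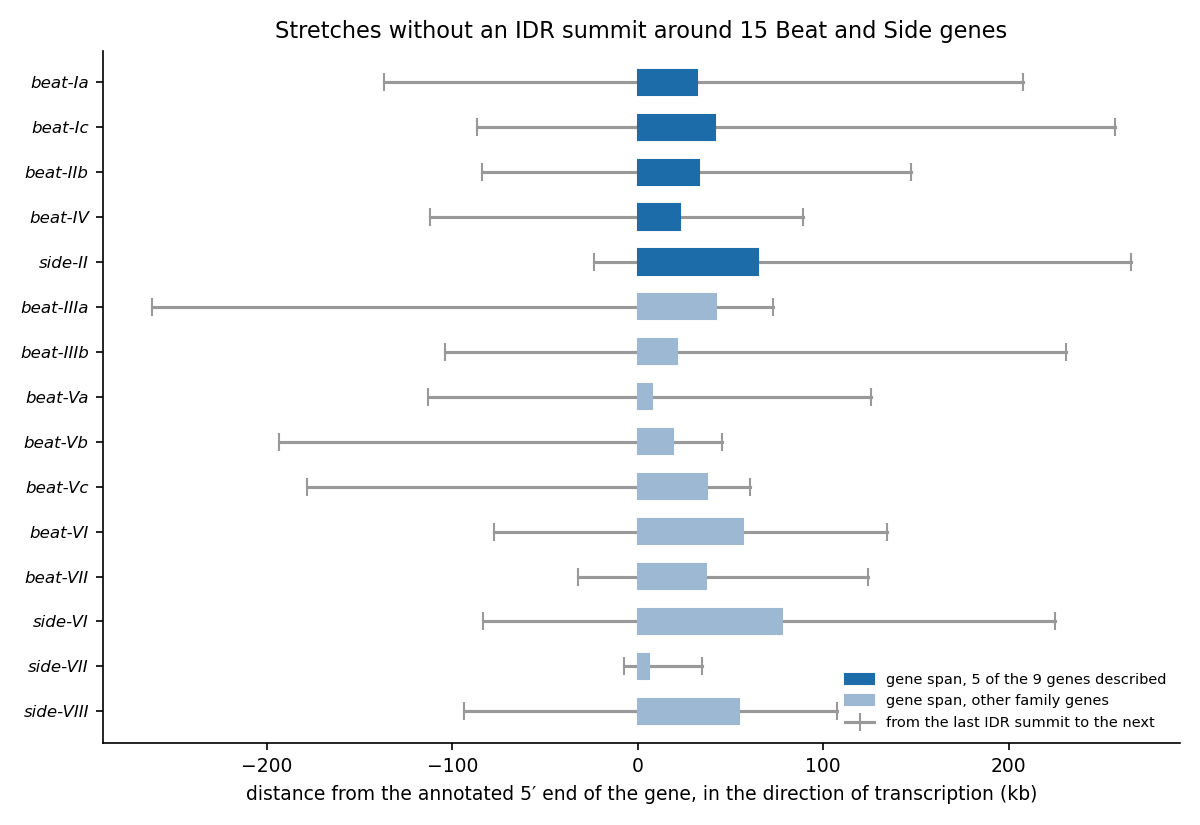
Stretches without an IDR summit around the 15 Beat and Side genes that have none, by distance in kb from the annotated 5′ end of each gene in the direction of transcription (x); grey lines run between the flanking IDR summits and boxes are gene spans, dark for 5 of the 9 genes described and light for other family genes. The stretches of the 5 dark genes run from 200.9 kb (beat-IV) to 344.6 kb (beat-Ia and beat-Ic), and that of side-II reaches furthest on the 3′ side.

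In the rest of the families, 3 of 13 genes (23.1%) had an IDR summit, against the 4 of 9 here and 41.8% of all protein-coding genes. They were beat-IIIc with 5, side-IV with 2 and side-V with 8, 15 summits in all, and 9 of the 13 had no summit in any list. side-IV, the gene of the partner of Beat-IIa and Beat-IIb, had a strongest signal value of 618.1, above that of beat-IIa (190.1) and of any pooled peak at beat-IIb (83.6). A stronger IDR summit, with a signal value of 666.3 and rank 1545, lay just outside the side-IV window, 2031 bp upstream of its start. Over all 22 genes, 7 (31.8%) had an IDR summit, 3 of 14 Beat and 4 of 8 Side genes, and 12 (54.5%) had no summit in any list. Over all protein-coding genes these shares were 41.8% and 30.3%, and in the 2 longest length bins, which hold most but not all of the 22, they were 68.4% and 17.3%. beat-IIIc was the only one of the 22 with an IDR summit within 500 bp of an own start, 50 bp from it, with a signal value of 209.1. The strongest peak of the families was that of beat-Ib.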

How the data were processed

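Peak lists of Bsh-GFP ChIP-seq from 2 biological replicates were used as deposited, in assembly dm6, per the labels. Per the deposited text files, the authors called peaks on single replicates and on pooled replicates against 1 control, and derived the IDR list from these. The sources used here do not name the aligner, the caller or the IDR threshold, and the control was not analysed here. The age was read from the source name, since the age field of the labels holds a value that cannot be an embryo's age. The signal value is the deposited score of the authors' caller, on a scale that differs between lists, so lists were compared by rank. The −log10 of the q-value, also deposited, is 4.33 for every IDR peak described and was not used. The summit offset is the third value taken from the authors. The replicate and pooled lists hold 30000 peaks each, a set limit. The IDR peaks are the 7927 strongest pooled peaks. Read depth is unknown, so no interval is given, and ranks in both replicates are the measure of error.

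Summits were placed on Ensembl release 115 gene models. The class was promoter within 500 bp of any annotated start, and otherwise the first that applied of UTR (5′ before 3′), coding sequence, other exon, intron and intergenic. Peaks matched between lists at an overlap of at least 1 bp. Motifs were searched within 50 bp of the summit. The genes named are the members, the rest of both families and those whose protein-coding start is nearest to a member's IDR summit. Other neighbours and nested genes were named after the values were seen, and the comparisons by peak-free stretch and by GC content were added then too. Members, lists and motifs were chosen with earlier results of these data known. Alternatives were other margins, thresholds, promoter widths, start sets and motif windows, and each replicate alone. The counting was tested on simulated data. Python 3.11.15, numpy 2.4.6, pandas 2.3.3 and matplotlib 3.10.9 were used.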

Additional observations from a re-analysis of the deposited data

How the results depend on the processing

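Of 62 recomputed values of the main results, 41 were within 1.5 times the reported value and 21 were not. Within that limit, the share of protein-coding genes with an IDR summit still ran from 31.8% with a margin of 500 bp to 62.5% in the pooled list, against the 41.8% reported. The number of genes with an IDR summit was 4 under each margin tried, from 0 to 10 kb, while the share of all protein-coding genes was 15.6% without a margin and 70.5% with 10 kb. Among the 1000 strongest IDR peaks, 1 gene (beat-Ib) held 2 summits, both with TAAT, 0 of them nearest to a Beat or Side start, against 9.54% of all genes and 0 other family genes. Among the 3963 strongest IDR peaks, 2 genes held 6 summits, 6 with TAAT and 2 nearest to a family start, against 27.6% of all genes. The pooled list gave 25 summits, 5 in promoters, 14 nearest to a start of the 9 genes and 20 with TAAT. The 2 promoter summits became 0 within 250 bp, 4 within 1000 bp and 0 with protein-coding starts alone. With starts of all genes, 2 summits were nearest to one of the 9 genes. From single replicates, 3 to 4 genes held 10 to 11 summits. Without replicate 2, beat-IIa had 2 summits and side-III 0. Without replicate 1, beat-IIa kept 1 summit, but through another peak. This was the peak at 17357091 that the pooled list lacks, with rank 7730 in replicate 2, where the IDR peak of beat-IIa ranked 9325. No paired analysis was possible because there is 1 group. Peak lists show where a caller reached its threshold, so an empty window is not shown to be unbound, and the limit of 30000 peaks sets what a weak peak can be.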

Other observations

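For the other Beat and Side genes without an IDR summit, the stretch between the flanking IDR summits is given as a description, since a gene chosen for having none must lie in one longer than its window. beat-IIIa and beat-IIIb shared 1 of 334.8 kb, in which neither the pooled list nor either replicate placed a summit over 315.7 kb. beat-Va, beat-Vb and beat-Vc, whose 3 spans lie close together on 3R, shared 1 of 239.0 kb, of which 232.5 kb was free of summits of every list. The stretch was 308.6 kb at side-VI, 211.5 kb at beat-VI, the gene of the partner of Side-II, and 156.7 kb at beat-VII. At side-VIII it was 200.9 kb. At side-VII, the shortest of these genes, it was 42.2 kb, and the gene had weak summits in the replicates alone, 1 in replicate 1 and 2 in replicate 2. IDR stretches at least as long as that of side-VII held 55.3% of the bases. For the others here this share ran from 14.5% (beat-IIIa and beat-IIIb) to 24.1% (beat-VII).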
